A study of Mus musculus with 16 samples.

Results

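The 3′ domain of mouse 18S rRNA was examined as the 671 read-start positions from 1201 to 1871, the last nucleotide of the molecule, out of 6878 positions in 4 rRNAs and 1871 in 18S rRNA. Members were chosen by position alone. Total RNA came from lymph node CD4 T cells of female mice that had been activated on plates coated with antibodies to CD3 (5 µg/ml) and CD28 (1 µg/ml) for 20 h. Controls were Rnmt fl/fl CD4cre - mice (n = 4) and Rnmt cKO were Rnmt fl/fl CD4cre + mice (n = 4), in which a Cre recombinase under the CD4 promoter removes Rnmt, the mRNA cap guanine methyltransferase gene, in T cells. All animals carried the floxed alleles. RNA of each animal (300 ng) was split into a library treated with the carbodiimide CMC at 0.17 M and a mock-treated library, giving 16 libraries of rRNA read starts. Neither the deletion of Rnmt nor the cell type can be checked from read starts on rRNA.

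The 3′ domain of 18S rRNA folds into the head of the small ribosomal subunit and the helix that carries the decoding site. Several of its nucleotides are chemically modified after transcription. Pseudouridine (Ψ), an isomer of uridine, is made by snoRNA-guided enzymes, as is methylation of the ribose, whereas the base methylations are placed by stand-alone enzymes. CMC leaves an adduct on Ψ that blocks reverse transcriptase, so that cDNAs end, and reads start, 1 nucleotide 3′ of it. Some other modifications stop reverse transcriptase without CMC.

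Termination is given as the read starts at a stop in percent of all read starts in the 65 nucleotides that end there, and each stop is assigned to the nucleotide 1 position 5′ of it. The PSU score of an animal is its CMC termination over its mock termination. A Ψ was called in a genotype at a mean CMC termination of at least 3% and a mean PSU score of at least 3. Of the modified nucleotides known from 18S rRNA, 16 in the domain were listed, 9 of them Ψ. Counting in the numbering of the files, bases were read from an 18S rRNA copy on mouse chromosome 17 (GRCm38), which is not the sequence the reads were aligned to. The list uses human numbers shifted by 2. Of 61 offsets between the files and the copy, the one with the most listed bases matching up to 1694 was taken. It matched 12 of 12, and the second best matched 8, so this match is no separate check. From 1834, counted from the 3′ end of the copy, the listed base was found at 4 of 4. The copy lacks 27 nucleotides somewhere between 1694 and 1834, so no base was read from 1695 to 1833.

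The sequences around the nucleotides that carry the results are shown 5′ to 3′ on the plus strand, with T for U. Capitals mark the listed modified nucleotides, except that in a stretch named for a Ψ they mark that Ψ alone, so that ac4C1339, near the start of the Ψ1349 stretch, is in lower case. They show the loop of the head with 3 Ψ and the hypermodified m1acp3Ψ1250 (chr17:39847587-39847617), the 3 stretches with 1 called Ψ in the middle (chr17:39847694-39847718, chr17:39847714-39847738 and chr17:39847792-39847816), the stretch with Ψ1627, m7G1641 and Ψ1645 (chr17:39847977-39848012), the stretch that ends in Ψ1694 (chr17:39848027-39848051), and the 3′ end with the modified adenosines and cytidine (chr17:39848164-39848201).
1230 to 1260: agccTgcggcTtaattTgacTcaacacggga
Ψ1349: gccgttcttagtTggtggagcgatt
Ψ1369: cgatttgtctggTtaattccgataa
Ψ1447: cccccaacttctTagagggacaagt
1620 to 1655: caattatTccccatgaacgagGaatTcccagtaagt
Ψ1694: tgcgttgattaagtccctgcccttT
1834 to 1871: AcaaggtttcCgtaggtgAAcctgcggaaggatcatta

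The libraries held 88614 to 174198 read starts in the domain, out of 1130058 to 2165668 in all rRNAs. The domain took 35.1% to 39.6% of the 18S read starts. Between 12 and 25 of its positions had no start, and no library had a start after position 1862, 10 nucleotides from the end. The mock library of Control 1 stood apart. Over the 352 stops of the domain that were tested, its log2 termination deviated from the mean of the other 7 mock libraries with an SD of 0.572, against 0.135 to 0.341 for the others, and 24 stops differed by more than 2-fold. Several results that rest on it are therefore also given without it. CMC libraries had SDs of 0.123 to 0.271.

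The strongest stops of the domain were present without CMC, and at none was the CMC effect past an adjusted p of 0.05 (edgeR). They lay beside nucleotides with bulky or charged modifications. Median mock termination over all 671 positions was 1.07%, and the highest value was at stop 1251, next to m1acp3Ψ1250, the Ψ that EMG1 methylates and that later receives an aminocarboxypropyl group. Mock termination there was 71.8%, 72.5%, 70.2% and 70.3% in controls and 76.98%, 70.4%, 72.3% and 70.5% in Rnmt cKO. CMC termination at the same stop was 75.3%, 70.5%, 67.5% and 68.8% in controls and 70.8%, 65.02%, 67.5% and 70.4% in Rnmt cKO. The groups overlapped, and the CMC effect was -0.05 on the log2 scale (edgeR quasi-likelihood test, adjusted p = 0.593). This stop alone held 4.00% to 6.09% of all read starts of the domain.

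The next strongest stops faced the dimethylated adenosines (m6,2A) made by DIMT1 near the 3′ end. At stop 1854, beside m6,2A1853, mock termination was 74.3%, 61.7%, 61.8% and 61.2% in controls and 69.1%, 54.4%, 54.3% and 55.4% in Rnmt cKO. Animal 1 of each genotype was highest, and Rnmt cKO was below the control of the same number in 4 of 4 pairs, by 6.45 percentage points on average (exact paired permutation test, 2-sided, p = 0.125, the smallest that 4 pairs allow). At stop 1853, beside m6,2A1852, mock termination was 7.78%, 43.4%, 48.1% and 33.6% in controls and 27.7%, 50.3%, 45.4% and 41.8% in Rnmt cKO. Here animal 1 of each genotype was lowest, and Control 1 lay far below the rest. These 2 stops took 93.8% to 96.9% of the read starts from position 1835 onward. Positions 1835 to 1852 kept 6 to 88 starts a library, so at m6A1834, the METTL5 site, and ac4C1844, the NAT10 site, no library had more than 2 starts and termination could not be compared.

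The stops next in strength flanked m7G1641, which BUD23 methylates. Mock termination at stop 1642 was 22.5%, 24.1%, 24.6% and 23.6% in controls and 25.4%, 25.8%, 28.9% and 25.0% in Rnmt cKO, without overlap. Rnmt cKO exceeded controls by 2.56 percentage points. By a 2-sided exact permutation test p was 0.0286, the smallest value that 4 against 4 animals allow, and 0.324 once adjusted over 34 tests (17 stops, each with CMC and mock). CMC termination there was 24.8%, 24.2%, 25.0% and 24.3% in controls and 24.3%, 23.5%, 22.0% and 21.5% in Rnmt cKO, so the groups overlapped and their means stood in the opposite order. Stop 1641, whose nucleotide is the guanosine before m7G1641, had a mean mock termination of 13.2% ± 2.9 (SD, n = 8) and was also lower in Rnmt cKO in 4 of 4 pairs. Stops 1250 and 1640, with 11.8% and 10.7%, followed, and each lies 1 nucleotide 5′ of a stronger stop.

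**Figure D1:**
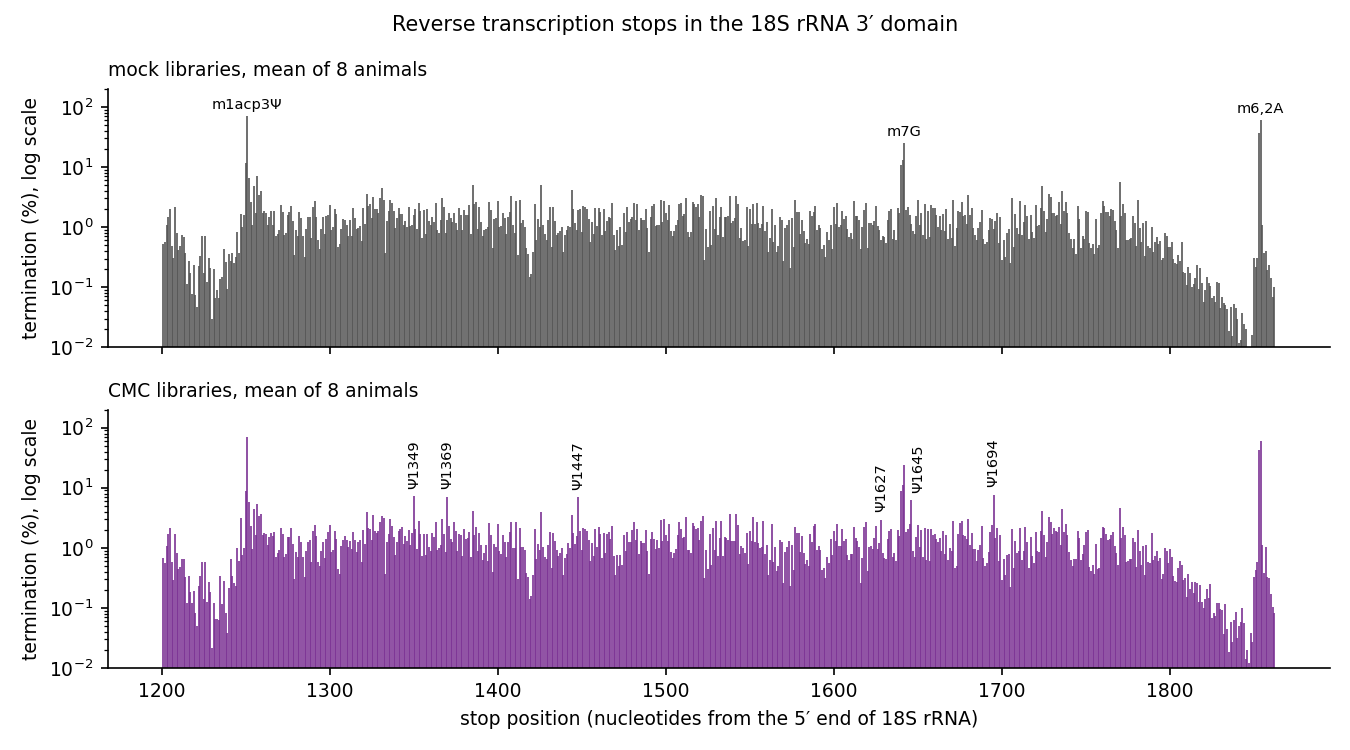
Mean termination over 8 animals (percent, log scale) at each stop of the domain in mock (top) and CMC libraries (bottom), against the position in 18S rRNA in nucleotides. The peaks beside m1acp3Ψ, m7G and m6,2A stand in both panels, and the 6 called Ψ stand out with CMC.

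CMC raised termination at 6 nucleotides enough to be called Ψ, and all 6 are among the 9 listed Ψ of the domain. Ψ1349, Ψ1369, Ψ1447, Ψ1645 and Ψ1694 were called in both genotypes, and Ψ1627 in Rnmt cKO only, as its mean CMC termination was 2.72% ± 0.28 in controls and 3.15% ± 0.39 in Rnmt cKO (SD, n = 4). Called sites were 0.894% of the positions of the domain, against 1.02% of the 6874 positions that could be called in the 4 rRNAs. In controls 5 and in Rnmt cKO 6 sites were called.

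Ψ1694 had the largest rise. Its CMC termination was 7.12%, 7.23%, 6.93% and 7.68% in controls and 8.99%, 8.47%, 8.08% and 6.71% in Rnmt cKO. Its mock termination was 0.867%, 1.06%, 0.966% and 0.942% in controls and 1.101%, 0.881%, 0.764% and 0.868% in Rnmt cKO. All 8 animals lay well above their own mock library, and the log2 change was 3.04 ± 0.09 (SE, edgeR quasi-likelihood test with the animal as a block, adjusted p = 9.21e-10). Between 97 and 251 starts stood behind a mock value and 1122 to 1773 behind a CMC value.

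Ψ1369 and Ψ1349 lie close together in the sequence. CMC termination at Ψ1369 was 6.86%, 5.68%, 6.39% and 7.27% in controls and 8.15%, 7.89%, 8.23% and 6.66% in Rnmt cKO. Mock termination there was 0.808%, 1.37%, 1.32% and 1.27% in controls and 1.23%, 1.42%, 1.47% and 1.54% in Rnmt cKO. The log2 rise with CMC was 2.46 ± 0.12 (edgeR, adjusted p = 3.62e-08), and the low mock value of Control 1 gave that animal the highest score. At Ψ1349 CMC termination was 6.99%, 6.90%, 6.68% and 7.43% in controls and 8.09%, 8.32%, 7.12% and 6.004% in Rnmt cKO. Mock termination was 1.28%, 1.57%, 1.56% and 1.62% in controls and 1.63%, 1.65%, 1.74% and 1.68% in Rnmt cKO, so each Rnmt cKO value lay above each control value. The log2 rise was 2.17 ± 0.08 (edgeR, adjusted p = 5.6e-09).

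The Ψ on either side of m7G1641 differed in level. At Ψ1645 CMC termination was 6.27%, 5.79%, 5.98% and 6.14% in controls and 6.79%, 6.45%, 6.22% and 5.42% in Rnmt cKO, over mock values of 1.01% to 1.34%. At Ψ1627 it was 2.86%, 2.38%, 2.63% and 3.02% in controls and 3.36%, 3.51%, 3.11% and 2.62% in Rnmt cKO, over mock values of 0.331% to 0.748%. The log2 rises were nevertheless close, with 2.44 ± 0.08 at Ψ1645 and 2.26 ± 0.12 at Ψ1627 (edgeR, adjusted p = 1.53e-09 and 1.11e-07).

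Ψ1447 had the smallest rise of the called sites and the most variable background. CMC termination was 7.21%, 5.88%, 7.49% and 7.09% in controls and 7.53%, 7.89%, 6.89% and 5.85% in Rnmt cKO. Mock termination was 0.976%, 1.88%, 1.77% and 1.91% in controls and 1.54%, 2.38%, 2.99% and 2.203% in Rnmt cKO, higher in Rnmt cKO in 4 of 4 pairs (log2 difference 0.47, not past an adjusted p of 0.05). The log2 rise was 1.89 ± 0.17 (edgeR, adjusted p = 9.41e-06).

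The other 3 listed Ψ lie just 5′ of the strong stop at m1acp3Ψ1250, in the loop printed above. Ψ1246 rose with CMC, by 0.93 ± 0.09 on the log2 scale (edgeR, adjusted p = 3.12e-05), but missed the thresholds. Its CMC termination was 3.02%, 2.44%, 2.33% and 2.91% in controls and 4.21%, 2.82%, 3.58% and 3.66% in Rnmt cKO, and all 8 PSU scores were between 1.43 and 2.31. Ψ1240 and Ψ1234 had a mean CMC termination of 0.647% ± 0.19 and 0.344% ± 0.11 (SD, n = 8) and fell below the 1% mean termination required for the test. CMC termination exceeded mock termination in 8 of 8 animals at both, with 9 to 38 starts in a CMC library. With a window of 30 nucleotides in place of 65 both were called, as was a uridine near the 3′ end that is not listed.

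**Figure D2:**
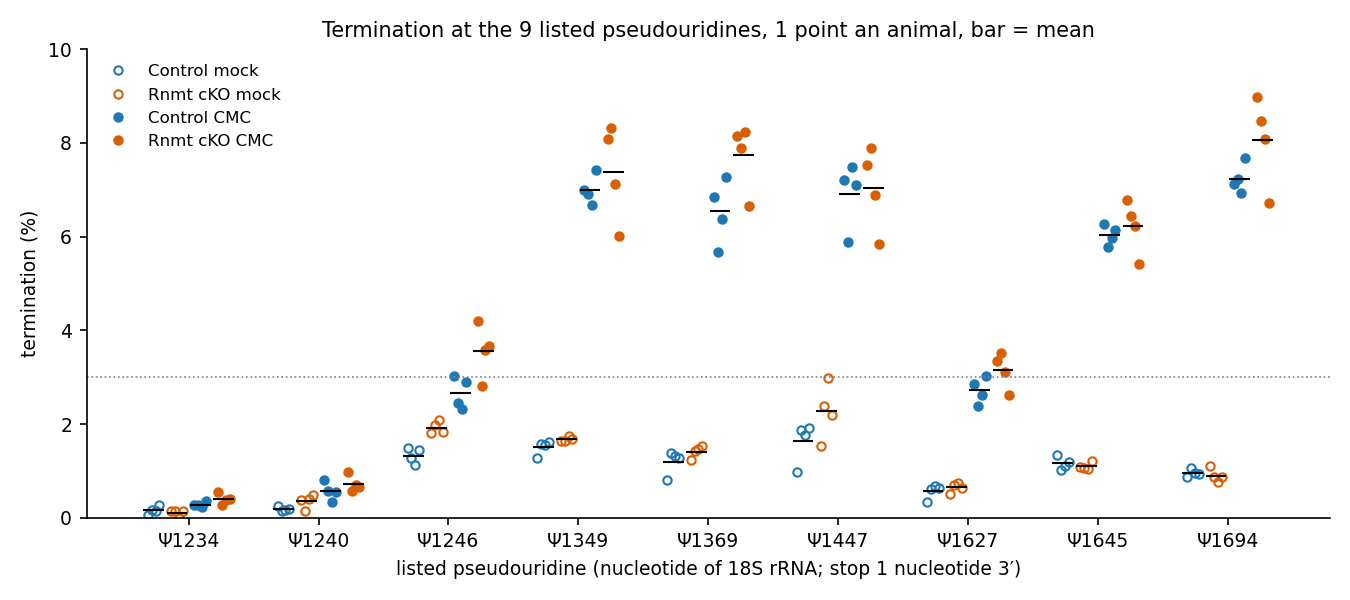
Termination (percent) at the stop of each of the 9 listed Ψ, 1 point an animal, in control and Rnmt cKO mock (open) and CMC (filled) libraries, with the mean as a bar and the 3% threshold dotted. CMC points lie above 5% at 5 sites, near 3% at Ψ1246 and Ψ1627, and below 1% at Ψ1234 and Ψ1240.

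Around the called sites, the nucleotide 1 position 5′ of the main stop was raised as well. Read starts at the Ψ itself, 1 position closer to the 5′ end than the main stop, were higher with CMC at 5 of 5 sites tested, by 0.43 to 0.82 on the log2 scale, at Ψ1349, Ψ1447, Ψ1627, Ψ1645 and Ψ1694. These stops were looked at after their values had been seen. At Ψ1694 this position rose from a mock mean of 1.37% ± 0.09 to 2.41% ± 0.18 (SD, n = 8). Of the 4 tested stops 1 position 3′ of the main stop, 1 was higher, stop 1371 beside Ψ1369, by 0.46. At all of these neighbouring stops that rose, the nucleotide 5′ of the stop is also a U in the copy.

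Over the whole domain, 90 of 352 tested stops changed with CMC (edgeR, adjusted p under 0.05), 48 higher and 42 lower. That is 25.6% of the tested stops, against 21.7% over all 4026 tested positions, with 13.6% higher and 11.9% lower against 11.5% and 10.2%. The median log2 change was -0.06 in the domain and -0.04 over all positions. The other 319 positions of the domain had a mean termination under 1%. The split depended on the scaling, since with TMM library sizes in place of the window coverage 52 were higher and 14 lower. Without Control 1, 113 stops changed, 53 higher and 60 lower.

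The stops that rose and fell with CMC differed in the nucleotide they faced. Among stops with a base read, uridine or Ψ stood 5′ of 43 of the 44 that rose and of none of the 37 that fell. In other words, 46.2% of the 93 tested stops at a uridine rose, against 1 of 72 at a cytidine and none of 62 at an adenosine and 74 at a guanosine. Falls were found at 13 adenosines, 16 cytidines and 8 guanosines. The median log2 change was 0.21 at uridines, -0.14 at adenosines, -0.14 at cytidines and -0.08 at guanosines. Without the called sites and the stops beside them, 31 of 81 stops at uridines still rose and none fell. With TMM library sizes, 41 of 44 stops that rose and none of 14 that fell were at a uridine. Over all 19 other settings, leaving out animals included, between 38 and 58 stops that rose faced a uridine and no stop that fell did.

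Away from the called sites, Ψ1246 and their neighbours, the largest rise was at stop 1789, by 0.79 ± 0.10 (edgeR, adjusted p = 0.000236), and this stop was singled out after its values were seen. Its CMC termination was 1.86%, 1.71%, 2.12% and 1.82% in controls and 1.42%, 2.12%, 1.49% and 1.44% in Rnmt cKO, over mock values of 0.789% to 1.14%. No base was read for nucleotide 1788. Stops 1374 and 1375, both at a uridine near Ψ1369, followed with 0.66 and 0.70.

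The 5 largest falls among stops past an adjusted p of 0.05 were smaller than the rises at called Ψ. Stop 1249, at an adenosine beside m1acp3Ψ1250, fell by 0.72 ± 0.17 on the log2 scale (edgeR, adjusted p = 0.0116). Its mock termination was 0.709%, 1.70%, 1.495% and 1.92% in controls and 1.154%, 1.92%, 2.51% and 1.54% in Rnmt cKO, and its CMC termination was 0.779% to 1.36%. In Control 1 and Rnmt cKO 1 the CMC value was not the lower one. Stops 1413, 1368, 1383 and 1615 fell by 0.41, 0.40, 0.39 and 0.38. Stop 1368, at a guanosine 2 positions 5′ of the Ψ1369 stop, was lower with CMC in 8 of 8 animals, as was stop 1413, at a cytidine. At ac4C1339 termination was 1.23% ± 0.14 with CMC and 1.42% ± 0.16 in mock libraries (SD, n = 8). This was a fall by 0.21 on the log2 scale (edgeR adjusted p = 0.0386).

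**Figure D3:**
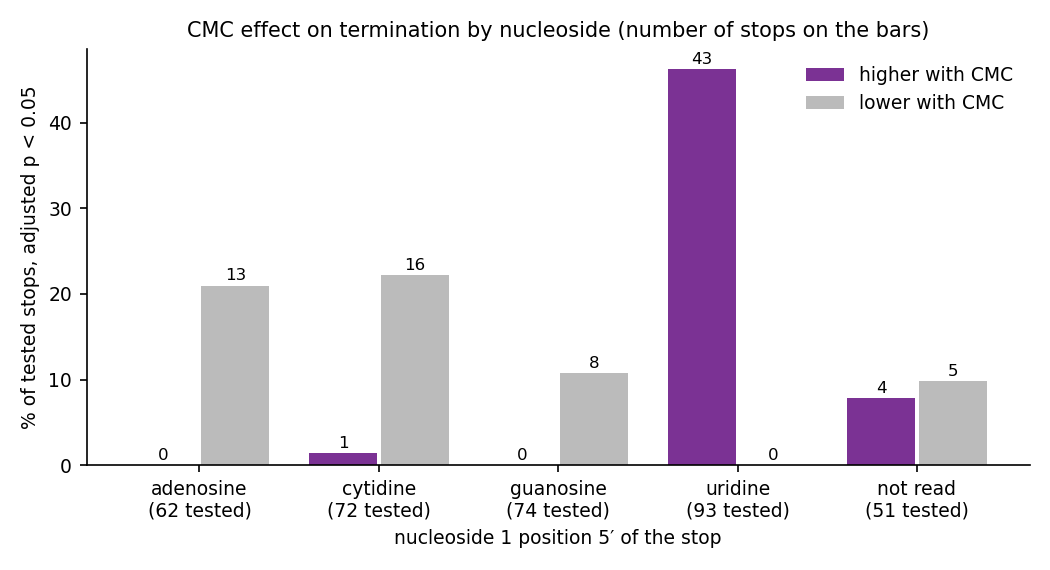
Share of tested stops (percent) that were higher or lower with CMC at an adjusted p under 0.05, by the nucleoside 1 position 5′ of the stop, with the number of stops on each bar. Rises stand almost wholly at uridines, 43 of 93, and falls at the other nucleosides.

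Pseudouridine did not differ detectably between genotypes. None of the 6 called sites passed an adjusted p of 0.05 in limma on the PSU score (0 of 70 sites in the 4 rRNAs, 0%), and none had an unadjusted p under 0.05. At Ψ1694 the score was 8.21, 6.80, 7.17 and 8.15 in controls and 8.16, 9.61, 10.6 and 7.73 in Rnmt cKO, a difference of 1.44 ± 0.73 (SE, limma adjusted p = 0.599). The Rnmt cKO scores reached higher, but the groups overlapped.

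At Ψ1447 the score was 7.38, 3.14, 4.22 and 3.71 in controls and 4.90, 3.31, 2.30 and 2.65 in Rnmt cKO, a difference of -1.32 ± 0.97 (limma adjusted p = 0.781). The high control mean of 4.61 ± 1.90 (SD, n = 4) rested on Control 1 and was 3.69 ± 0.54 without it (n = 3). At Ψ1645 the score was 4.67, 5.71, 5.43 and 5.12 in controls and 6.20, 6.09, 5.998 and 4.50 in Rnmt cKO, a difference of 0.46 ± 0.57 (limma adjusted p = 0.797).

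Differences at Ψ1349, Ψ1369 and Ψ1627 were -0.26, -0.27 and -0.33. Control 1 had the highest score of all 8 animals at each of these sites, with 5.48, 8.49 and 8.64. Without it the control means were 4.41 ± 0.15, 4.90 ± 0.80 and 4.17 ± 0.55 (SD, n = 3), and the differences became 0.0084, 0.63 and 0.79, with the opposite sign and no adjusted p under 0.05.

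CMC termination differed between genotypes at no tested stop of the domain (0 of 352, and 0% of 4026 positions; edgeR adjusted p). At an unadjusted p under 0.05 there were 47. DESeq2 called 8 stops of the domain, 6 higher and 2 lower, and 2.93% of all positions. The smallest p was at stop 1770, where CMC termination was 3.01%, 3.73%, 3.74% and 4.07% in controls and 6.15%, 5.65%, 5.59% and 5.49% in Rnmt cKO. Every Rnmt cKO value lay above every control value, and the log2 difference was 0.65 (edgeR adjusted p = 0.0646). Without Control 1 the adjusted p was 0.0210, the only call of the domain in that setting, in which 0.671% of all positions were called.

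Stop 1770 was also the stop with the smallest p in mock libraries. Its mock termination was 2.88%, 4.39%, 3.65% and 4.45% in controls and 6.57%, 6.41%, 10.6% and 7.02% in Rnmt cKO, again without overlap, a log2 difference of 0.99 (edgeR adjusted p = 0.661). With the replicate number as a block the difference was 0.98 and the adjusted p 0.0486. The ratio of CMC to mock termination there was 0.526 to 1.05, and the CMC effect was -0.23 on the log2 scale (edgeR adjusted p = 0.157). Nucleotide 1769 is not among those listed, and its base was not read.

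Stops 1717 and 1724 lay in the same stretch and also had higher values in Rnmt cKO. CMC termination at stop 1717 was 1.25%, 1.25%, 1.31% and 1.25% in controls and 1.66%, 1.48%, 1.97% and 1.76% in Rnmt cKO (log2 difference 0.44, edgeR adjusted p = 0.0692). At stop 1724 mock termination was 3.81%, 4.25%, 3.93% and 4.09% in controls and 4.78%, 6.22%, 5.24% and 6.44% in Rnmt cKO (log2 difference 0.50, edgeR adjusted p = 0.661). With CMC, DESeq2 called stops 1697, 1714, 1715, 1717, 1724 and 1770 higher and stops 1763 and 1781 lower in Rnmt cKO. No base was read at any of them. In mock libraries DESeq2 called stops 1724 and 1770. Of the 48 tested stops from 1701 to 1800, 15 had an unadjusted edgeR p under 0.05 with CMC, against 47 of 352 in the domain. This was the highest count among stretches of up to 100 positions, with 0 to 11 in the others. In mock libraries 5 of these 48 stops did, against 13 of 41 from 1201 to 1300. Such counts were not made over all 4 rRNAs, so the stretch is not shown to be unusual. Stop 1763 was lower in Rnmt cKO with CMC, 1.00% to 1.25% against 1.46% to 1.64% (log2 difference -0.42, edgeR adjusted p = 0.0692), while its mock value in Control 1 was 4.35% and between 1.13% and 1.71% in the other 7 animals.

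In mock libraries, no stop of the domain passed in the fit without a block (0 of 352, and 0% of all positions; 25 at an unadjusted p under 0.05; DESeq2 called 2, and 0.224% of all positions). With the replicate number as a block, which pairs the mock libraries by number alone, 9 of 352 passed, 1 higher and 8 lower in Rnmt cKO. Over the 4 rRNAs 52 of 4026 positions passed, or 1.29%. All 8 stops that were lower lay at or 1 nucleotide 3′ of a nucleotide whose ribose is methylated in 18S rRNA. Reverse transcriptase is known to pause there when nucleotides are scarce. The list of 12 such nucleotides in the domain was added after these calls had been seen, and so no test was made of it. At 10 of 10 with a base read, the listed base was found in the copy.

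The following stretches with such nucleotides are shown 5′ to 3′, with T for U and capitals at the ribose-methylated nucleotides, because large differences between genotypes in mock libraries lay 1 nucleotide 3′ of the capitals (chr17:39847635-39847659, chr17:39847675-39847697 and chr17:39847837-39847861, plus strand, GRCm38).
1278 to 1302: acacggacaggaTtgacagattgat
1318 to 1340: ccgtgggtggTgGtgcatggccg
1480 to 1504: tgagcaataacaGgtctgtgatgcc

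The pattern was the same at most of the 12. Control 1 was the highest of the 8 mock libraries at 11, and Rnmt cKO was below the control of the same number in 4 of 4 pairs at 10, at the stop 1 nucleotide 3′. Of the 12 such stops 9 were tested, and 8 of these were lower in 4 of 4 pairs. Over all tested stops of the domain, 14.8% were lower in Rnmt cKO in 4 of 4 pairs. Read starts at the ribose-methylated nucleotide itself were less uniform. They were lower in 4 of 4 pairs at nucleotides 1290, 1328, 1385, 1444, 1680 and 1806. At nucleotides 1274, 1330 and 1449 they were higher in 4 of 4 pairs, with means at 1330 of 2.78% in controls and 3.26% in Rnmt cKO. At the stop 3′ of nucleotide 1330 mock termination was 12.1%, 3.33%, 4.29% and 4.62% in controls and 6.83%, 1.26%, 1.39% and 1.83% in Rnmt cKO. The blocked log2 difference there was -1.28 (edgeR adjusted p = 0.0154). Animal 1 was far above the others in each genotype, and the Rnmt cKO values of animals 2 to 4 were below all controls.

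At nucleotide 1290 mock termination was 5.99%, 2.29%, 2.95% and 3.29% in controls and 4.10%, 0.831%, 0.780% and 1.16% in Rnmt cKO (blocked log2 difference -1.33, edgeR adjusted p = 0.0346). At nucleotide 1492 it was 8.25%, 1.30%, 1.72% and 1.69% in controls and 3.86%, 0.545%, 1.03% and 0.691% in Rnmt cKO (-1.09, edgeR adjusted p = 0.0154). At nucleotide 1705 it was 8.85%, 2.21%, 2.92% and 3.01% in controls and 4.68%, 0.693%, 0.637% and 1.02% in Rnmt cKO (-1.55, edgeR adjusted p = 0.0166). Each of the 3 sites repeated the order seen at nucleotide 1330. Without a block, the log2 differences at nucleotides 1290, 1330, 1492 and 1705 were -1.08, -1.10, -1.08 and -1.27, and without Control 1 they were -0.72, -0.52, -0.03 and -0.62, none of them past an adjusted p of 0.05 in either fit. Rnmt cKO 1, which was also high, stayed in the fit without Control 1, and the numbers are not shown to pair the animals. With both animals numbered 1 left out, the log2 differences were -1.61, -1.45, -1.08 and -1.78, each past an adjusted p of 0.05 (edgeR). That setting was chosen after the data had been seen, so the result depends on which animals are left out. The exceptions were nucleotides 1274 and 1449, where means were 1.67% ± 0.21 against 1.51% ± 0.19 and 0.889% ± 0.22 against 0.760% ± 0.08 (SD, n = 4).

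With both animals numbered 1 left out, 16 stops of the domain passed without a block, 2 higher and 14 lower, and 3.45% of all positions were called. Of the 14, 12 lay at or 1 nucleotide 3′ of a ribose-methylated nucleotide, as did 18 of the 352 tested stops. The other 2 were stops 1257 and 1671. The 2 that were higher were stops 1724 and 1770. With the block as well, 13 passed, 2 higher and 11 lower, 10 of the latter at or beside ribose-methylated nucleotides, and 2.61% of all positions were called.

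In CMC libraries the means were also lower in Rnmt cKO at 11 of the 12 nucleotides, and lower in 4 of 4 pairs at 2. Of the 18 tested stops at or beside them, 16 had a log2 difference below 0 with CMC, as did 16 in mock libraries. At the stop 3′ of nucleotide 1330 CMC termination was 4.05%, 4.96%, 3.67% and 2.71% in controls and 3.07%, 1.30%, 2.74% and 4.87% in Rnmt cKO. The median log2 difference over the 18 tested stops at or beside ribose-methylated nucleotides was -0.20 with CMC and -0.63 in mock libraries, against 0.02 and 0.03 over all tested stops of the domain, and none of the 18 was called with CMC. Mock libraries also differed in depth, with 1850996 to 2165668 read starts in controls and 1130058 to 1827610 in Rnmt cKO. The part of library preparation in this difference was not tested.

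**Figure D4:**
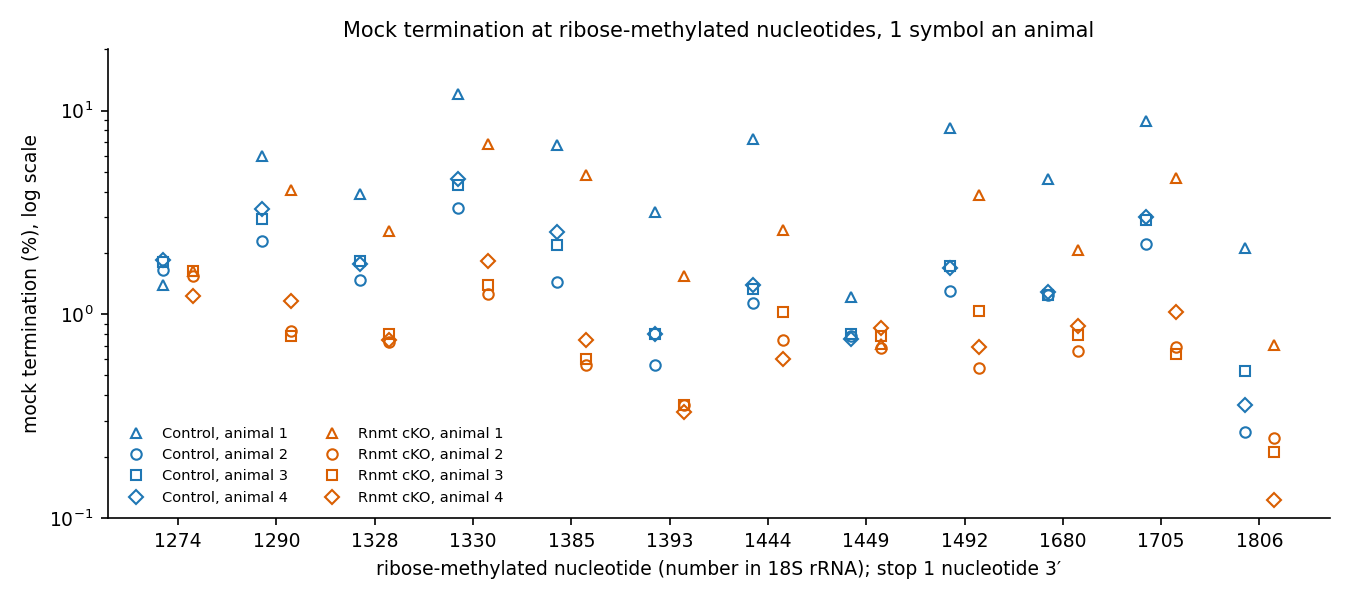
Mock termination (percent, log scale) 1 nucleotide 3′ of 12 ribose-methylated nucleotides, 1 symbol an animal, in control (blue) and Rnmt cKO (orange). Triangles, the animals numbered 1, are highest in their genotype at 10 of 12 nucleotides, and each orange symbol lies below the blue symbol of the same shape at 10.

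The CMC effect did not differ detectably between genotypes. The interaction was called at 0 of 352 stops (0% of all positions; edgeR adjusted p), with 12 at an unadjusted p under 0.05, and DESeq2 called 0 of the domain. The smallest p was at stop 1708, where the ratio of CMC to mock termination was 0.519, 0.669, 0.706 and 0.652 in controls and 0.925, 0.976, 1.29 and 0.957 in Rnmt cKO, an interaction of 0.69 (edgeR adjusted p = 0.767). The groups did not overlap. Stops 1264 and 1308, both at a cytidine, followed with interactions of 0.34 and 0.37 (edgeR adjusted p = 0.785 for both).

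Exact permutation tests of the 17 listed or strongest stops, each in CMC and in mock libraries, gave 3 unadjusted p of 0.0286 and no adjusted p under 0.324. All 3 were in mock libraries and higher in Rnmt cKO, at Ψ1246, Ψ1349 and m7G1641. At Ψ1246 mock termination was 1.49%, 1.27%, 1.12% and 1.44% in controls and 1.82%, 1.97%, 2.09% and 1.82% in Rnmt cKO, a difference of 0.60 percentage points without overlap. At Ψ1349 the difference was 0.16 percentage points, from 1.51% ± 0.16 to 1.67% ± 0.05 (SD, n = 4).

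**Figure D5:**
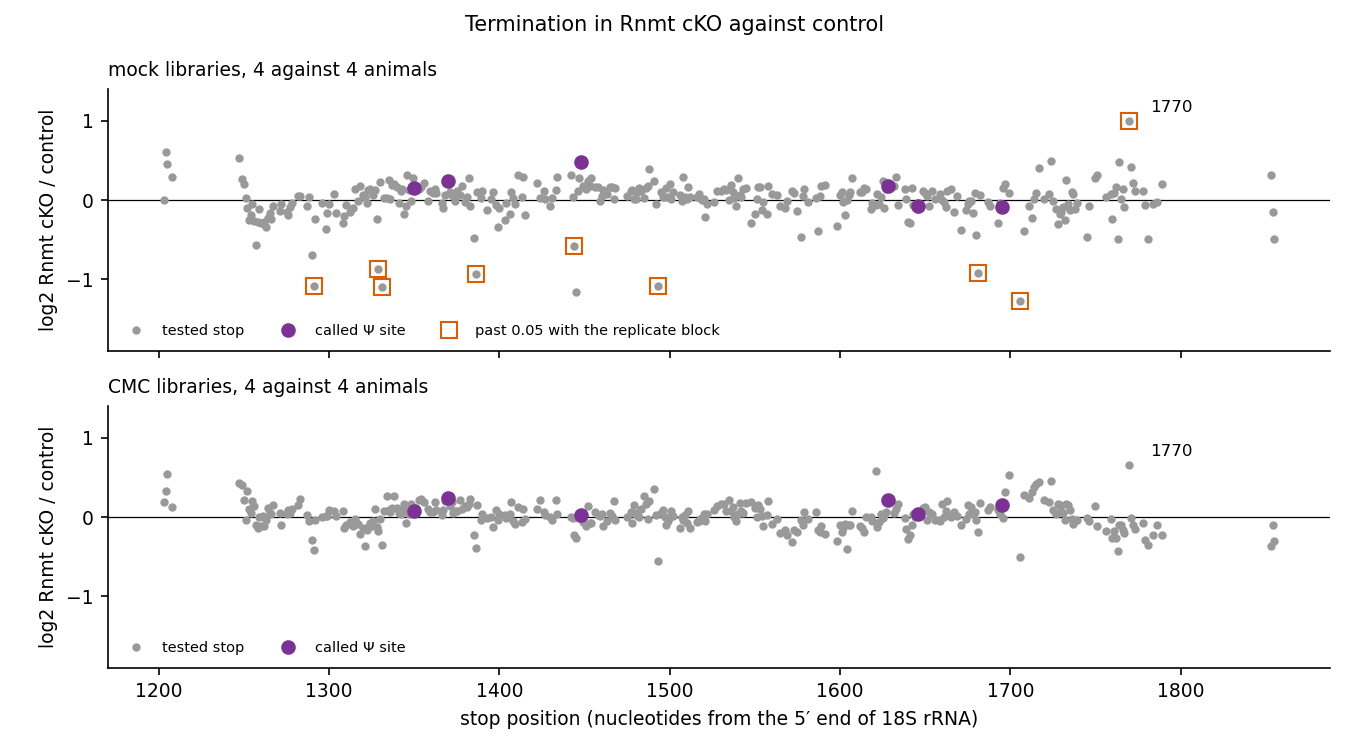
Log2 ratio of termination in Rnmt cKO over control at each tested stop, 4 against 4 animals, in mock (top) and CMC libraries (bottom), against the position in 18S rRNA in nucleotides, with called Ψ in purple and stops past an adjusted p of 0.05 with the replicate block in orange squares. The 6 called Ψ lie between -0.09 and 0.47 in mock and between 0.02 and 0.24 in CMC libraries, 8 squares lie below 0 in mock libraries, and stop 1770 lies above 0 in both panels.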

How the data were processed

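Pseudouridine sequencing libraries (CMC and mock, 8 animals) were analysed from deposited tables of raw read-start counts per rRNA nucleotide. Per the authors' methods and the labels, reads were deduplicated by UMI-tools and trimmed by cutadapt. The labels name STAR 2.5.2b, whereas the methods describe bowtie2 against a custom rRNA sequence, with alignments under a mapping quality of 20 removed. The counts are not scaled to depth.

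Coverage at a stop was taken as all read starts in the 65 nucleotides ending there (75 cycles less a 10-nucleotide barcode). It is an upper bound on true coverage, so that termination is a lower bound. Stops with a mean termination of at least 1% (4026) were tested in edgeR 4.0.16 (quasi-likelihood, R 4.3.3) with log coverage as offset and Benjamini-Hochberg adjustment over all 4 rRNAs, PSU scores in limma 3.58.1 over 70 called sites, and 17 stops by exact permutation (SciPy 1.17.1). DESeq2 1.42.0, TMM, other windows and filters, a replicate block and leaving out each animal were alternatives. The scripts were tested on simulated data.

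Animals were the replicates. Same-numbered mock libraries deviated together (r = 0.645, 0.408, 0.154 and 0.373), as did PSU scores (0.578, 0.127, 0.368 and 0.167). CMC libraries did not (-0.0908, -0.0193, -0.131 and -0.342). Correlations between differently numbered animals were not computed, so these values do not show that the numbers pair the animals. Pairs and the replicate block go by number alone. Stops named are those listed, called, strongest in mock libraries, with the 5 largest rises and falls with CMC among stops past an adjusted p of 0.05, or with the 3 smallest p in each genotype comparison. Stops beside called ones, stops 1250, 1640 and 1789, and those called only under an alternative were named after their values were seen. The members, lists and rules were chosen with earlier results of these data known.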

Additional observations from a re-analysis of the deposited data

Results flagged for a closer look

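Of 80 groups of 4 animals, 11 held a value far from the others by the ratio of its gap to the range, where chance gives about 1 in 20. Control 1 was apart in mock libraries at the stops of Ψ1349 (1.28%, others 1.56% to 1.62%), Ψ1447 (0.976%, others 1.77% to 1.91%), Ψ1627 (0.331%, others 0.622% to 0.677%) and m6,2A1853 (74.3%, others 61.2% to 61.8%). Rnmt cKO 1 was apart in mock libraries at m6,2A1853 (69.1%, others 54.3% to 55.4%) and at stop 1641 (16.01%, others 10.1% to 10.7%). The PSU score of Rnmt cKO 4 at Ψ1645 was 4.50, with 5.998 to 6.20 in the others. At Ψ1234 mock termination in Rnmt cKO 3 was 0%, with 0.141% to 0.151% in the others. The last 3 values rest on 1 or 2 read starts in groups otherwise at 0, namely mock termination of 0.0444% in Control 2 at m6A1834, and at ac4C1844 CMC termination of 0.0335% in Rnmt cKO 2 and mock termination of 0.0309% in Control 3.

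At the stop of m7G1641, CMC minus mock termination was positive in 4 of 4 controls and negative in 4 of 4 Rnmt cKO animals, a difference of -4.27 percentage points. The interaction of genotype and CMC there was -0.25 on the log2 scale (edgeR adjusted p = 0.785).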

How the results depend on the processing

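Of 702 values under alternatives, 659 kept their direction and side of the threshold or stayed within the stated range. In controls 8 sites were called with a window of 30 nucleotides. In either genotype that window gave 9 sites, of which 8 are listed Ψ. A window of 40 nucleotides gave 7, of which 6 are listed Ψ. The remaining site was the same with both windows, a uridine that is not listed. A PSU score of at least 2 also gave 7 sites, among them m6,2A1852, which is not a Ψ. Windows of 40 and 30 nucleotides gave 137 and 152 stops changed by CMC, of which 69 and 72 were lower, and 80 were higher with the latter. Without a filter 79 were higher. With TMM 14 were lower. Leaving out 1 animal gave 24 to 60 lower, the lowest without Control 4 and the highest without Control 1, with 26 without Control 3. Both animals numbered 1 were left out as a choice made after seeing the data, which gave 64 lower, and 68 with the replicate block. Between genotypes, DESeq2 called 8 stops with CMC and 2 in mock libraries, and leaving out 1 animal gave 0 to 1 with CMC, the 1 without Control 1. In mock libraries the replicate block gave 9, both animals numbered 1 left out 16, and both together 13. With the block, 104 stops of the domain changed with CMC, and the counts for CMC termination, the interaction and the PSU score between genotypes stayed at 0. It uses pairs, for which the smallest exact p is 0.125.

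The sign of PSU score differences turned at Ψ1349 (leave-one-out range -0.47 to 0.023, with 0.0084 without Control 1), Ψ1369 (-0.82 to 0.63, with 0.14 without Rnmt cKO 4) and Ψ1627 (-0.84 to 0.79, with 0.11 and 0.13 for windows of 40 and 30 nucleotides). The mock difference in percentage points turned at m1acp3Ψ1250 (-0.11 to 2.09, with -0.0512 for a window of 40) and m6,2A1852 (-0.38 without Control 1, up to 13.1). The causes were not tested. Termination could not be compared where few starts fell, as between m6A1834 and m6,2A1852.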
